A study of Rattus norvegicus with 6 samples.

Results

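The collagen genes were examined in the testes of streptozotocin-treated and control rats. A row of the gene table was taken as a collagen gene when its symbol had the form Col, a number, the letter a and a number. This gave 44 of 35291 rows and 43 different symbols, since Col23a1 has a second row that is listed at 0 FPKM in every rat. The second chain of type I collagen was not analysed here. Of the 43 genes, 10 code for fibrillar collagens, 6 for the type IV chains of basement membranes and 27 for other collagens.

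Testicular tissue of Sprague-Dawley rats, which are outbred, was studied by RNA-Seq in a diabetic and a non-diabetic group of 3 rats each. Per the methods, the diabetic rats were fed a high-fat diet, received streptozotocin, a toxin of pancreatic beta cells, by intraperitoneal injection, and were studied 8 weeks later. The non-diabetic rats, here also called controls, received citrate buffer, and whether they were given the same diet is not said. No transgene or deletion is described for either group, and the ages of the rats were not given in the sources used here.

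Collagens are proteins of the extracellular matrix in which alpha chains rich in glycine and proline wind into a triple helix. The fibrillar types I, III and V form the cable-like fibrils of connective tissue. The type IV chains form a sheet that underlies epithelia, endothelia and, in the testis, the seminiferous tubules. Type VI makes beaded filaments next to the basement membrane. The fibril-associated collagens bind to the surface of fibrils. In the testis, collagens are found in the wall of the tubules, which peritubular myoid cells surround, in the interstitium with its Leydig cells, fibroblasts and vessels, and in the fibrous capsule, the tunica albuginea.

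Several type IV genes lie head to head in the genome and start from a common stretch of DNA, and the promoters of such pairs are shown because both members of a pair can be set beside each other in the expression values that follow. RefSeq windows (build GRCr8) of 300 bases, from 250 bases before to 50 bases after the annotated start, were matched by symbol for 34 of the 43 genes, and for 19 of the 24 genes that were tested. The build behind the expression values is not given in the sources used here, so the coordinates belong to the sequences only. Capitals mark the bases that a window shares, on the other strand, with the window of its partner.
Col4a1, chr16:84885347-84885646, plus strand: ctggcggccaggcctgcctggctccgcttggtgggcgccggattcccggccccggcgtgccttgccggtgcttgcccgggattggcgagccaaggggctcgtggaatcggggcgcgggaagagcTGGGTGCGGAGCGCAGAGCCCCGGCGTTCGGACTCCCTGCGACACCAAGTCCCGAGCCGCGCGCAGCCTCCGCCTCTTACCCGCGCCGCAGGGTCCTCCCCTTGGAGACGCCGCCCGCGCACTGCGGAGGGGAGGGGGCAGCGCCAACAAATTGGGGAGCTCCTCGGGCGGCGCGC
Col4a2, chr16:84885471-84885770, minus strand: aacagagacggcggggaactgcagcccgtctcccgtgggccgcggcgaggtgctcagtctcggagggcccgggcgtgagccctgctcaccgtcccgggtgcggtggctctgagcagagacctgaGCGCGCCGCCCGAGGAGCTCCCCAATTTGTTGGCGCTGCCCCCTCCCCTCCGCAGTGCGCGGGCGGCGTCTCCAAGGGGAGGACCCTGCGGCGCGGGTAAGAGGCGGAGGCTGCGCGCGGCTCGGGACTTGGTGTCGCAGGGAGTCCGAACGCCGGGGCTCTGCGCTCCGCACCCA
Col4a3, chr9:91323740-91324039, plus strand: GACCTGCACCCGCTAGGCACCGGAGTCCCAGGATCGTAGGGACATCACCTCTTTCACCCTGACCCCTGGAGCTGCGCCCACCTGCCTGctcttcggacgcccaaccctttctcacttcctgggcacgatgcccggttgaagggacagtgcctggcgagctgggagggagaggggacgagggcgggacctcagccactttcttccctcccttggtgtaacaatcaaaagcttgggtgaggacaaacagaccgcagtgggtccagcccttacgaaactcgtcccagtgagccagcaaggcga
Col4a4, chr9:91323528-91323827, minus strand: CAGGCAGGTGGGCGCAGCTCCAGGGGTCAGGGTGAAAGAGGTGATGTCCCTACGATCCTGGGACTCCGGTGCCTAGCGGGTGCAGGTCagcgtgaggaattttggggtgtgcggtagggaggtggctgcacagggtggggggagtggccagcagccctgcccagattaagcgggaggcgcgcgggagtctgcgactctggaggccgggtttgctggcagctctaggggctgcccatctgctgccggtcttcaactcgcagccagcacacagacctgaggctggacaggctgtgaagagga

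The windows of Col4a1 and Col4a2 shared 176 bases, and the annotated starts of these genes were 77 bases apart. The shared stretch held 1 CCAAT box, 2 GC boxes and no TATA box, and 75.0% of its bases were G or C. The windows of Col4a3 and Col4a4 shared 88 bases, which held none of the 3 motifs, and their starts were 413 bases apart. Col4a5 and Col4a6 also lie head to head, but their starts were 1415 bases apart and their windows shared 0 bases. Among protein-coding genes of the same assembly, Col3a1 and Col5a2 are direct neighbours, and so are Col6a1 and Col6a2.

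The windows of Col18a1 and Col16a1 are shown as a contrast, since Col18a1 was lower in every diabetic rat and Col16a1, the collagen with the highest level, overlapped between the groups. Here capitals mark the motifs searched, which were the CCAAT box, the GC box (GGGCGG) and the TATA box (TATAAA) on either strand.
Col18a1, chr20:11473395-11473694, plus strand: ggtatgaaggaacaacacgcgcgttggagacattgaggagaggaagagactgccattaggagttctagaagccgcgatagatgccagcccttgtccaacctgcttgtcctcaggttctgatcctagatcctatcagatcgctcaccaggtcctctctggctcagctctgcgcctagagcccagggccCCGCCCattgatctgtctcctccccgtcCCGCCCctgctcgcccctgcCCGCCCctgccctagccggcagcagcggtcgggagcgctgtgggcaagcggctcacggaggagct
Col16a1, chr5:147672846-147673145, plus strand: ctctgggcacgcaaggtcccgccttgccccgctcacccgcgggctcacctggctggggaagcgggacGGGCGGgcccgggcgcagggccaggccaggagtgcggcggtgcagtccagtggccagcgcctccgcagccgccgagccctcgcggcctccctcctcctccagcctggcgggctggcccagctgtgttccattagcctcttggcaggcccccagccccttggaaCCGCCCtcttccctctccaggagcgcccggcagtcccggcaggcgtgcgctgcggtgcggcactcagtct

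The Col18a1 window held 3 GC boxes and the Col16a1 window 2, and neither held a CCAAT or a TATA box. Other genes that were lower in every diabetic rat differed from Col18a1. The windows of Col6a1, Col6a3 and Col5a2 held none of the 3 motifs, that of Col4a5 held 1 GC box and that of Col6a6 held 2. Whether the motifs go with the differences between the groups was not tested. Over the 37 collagen windows, of which Col24a1 and Col6a5 have more than 1, a GC box was present in 54.1%, against 33.1% of all 33469 windows of the same length. A CCAAT box was present in 29.7% of the collagen windows and in 37.5% of all windows, and a TATA box in 8.11% and 14.2%. The letters of these motifs do not overlap one another in the printed windows. A match describes the letters only.

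The values are FPKM, fragments per kilobase of transcript scaled to library size, as deposited by the authors, so levels of different genes are compared per length. How many reads stand behind each library is not known. Relative depth, read from genes with less than 1 FPKM, was 0.966 to 1.09 in diabetic rats and 0.893 to 1.02 in controls around a mean of 1. Correlations of log2 values across genes were 0.958 to 0.965 within groups and 0.957 to 0.966 between groups, so no library stood apart. The extraction text in the labels speaks of an adipose type. The markers of spermatids in these libraries, among them the protamine genes, summed to between 11550 and 13690 FPKM in each of the 6 rats, and none of the marker genes looked up was at 0 in all rats.

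The test was that of limma on log2(FPKM + 0.1) wherever a gene averaged 0.5 FPKM or more in the 6 rats. Log2 fold changes are diabetic minus non-diabetic on that scale, on which the change of a low gene comes out too small. Of the 43 collagen genes, 24 met this limit, and the other 19 are described by their levels. Means are given ± SD over 3 rats a group. The labels number 3 libraries in each group and do not say that each came from a rat of its own, so the p-values measure the spread between these libraries. Counts of genes with a p-value below 0.05 refer to unadjusted p-values of limma, while the p printed for a gene is Benjamini-Hochberg adjusted over the 20338 genes tested. With 3 rats against 3, an exact permutation test cannot give a p below 0.1, and that value was reached by each of the collagen genes whose groups did not overlap.

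Of the 24 collagen genes tested, 20 had a lower mean log2 level in the diabetic testes, and the fibrillar and type IV genes were all among these 20. Over all genes tested this share was 55.6%. The criterion of the study, a log2 fold change of 1 or more in size together with a p-value below 0.05, was met by 2 collagen genes, Col3a1 and Col1a1, both lower, which is 8.33% of those tested. Of all genes tested, 0.846% were lower and 0.398% higher by this criterion. A p-value below 0.05 was reached by 10 collagen genes, all lower (41.7%, against 4.99% of all genes that were lower at this level), and by 0 collagen genes that were higher (2.47% of all genes). For 13 collagen genes (54.2%) every diabetic rat was below every non-diabetic rat, against 8.42% of all genes tested, and for 0 collagen genes the diabetic rats were all above, against 4.56%. The median log2 fold change was -0.30 over the 24 collagens and -0.021 over all genes tested. After adjustment limma placed 0 collagen genes and 7 of all genes below 0.05 (0.0344%). Without diabetic replicate 1 the count of collagen genes with a p-value below 0.05 was 6, and without non-diabetic replicate 1 it was 5. The samples are bulk tissue, in which fewer cells of a type and less RNA per cell cannot be told apart.

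**Figure D1:**
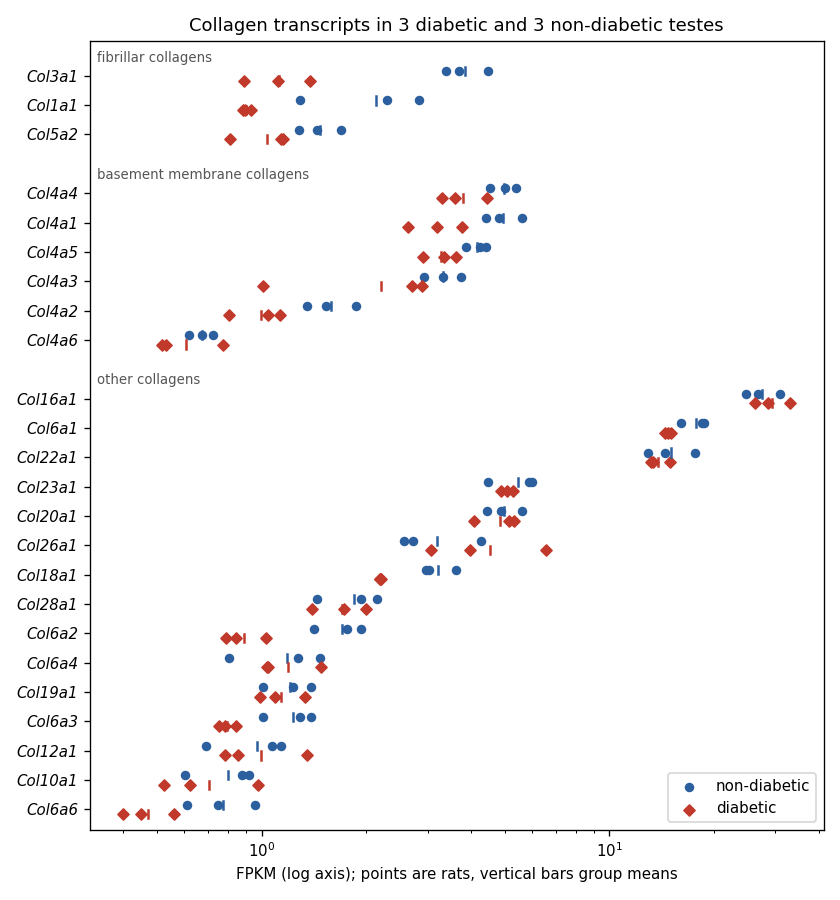
FPKM on a log axis of the 24 collagen genes tested, by class and level, with 1 point for each of 3 diabetic (red diamonds) and 3 non-diabetic rats (blue circles) and a vertical bar at each group mean. For Col3a1 the diabetic rats lie between 0.887 and 1.38 FPKM and the controls between 3.39 and 4.46 FPKM, while for Col16a1 the groups overlap between 26.2 and 30.9 FPKM.

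Among the fibrillar collagens, Col3a1 (ENSRNOG00000003357), the chain of type III collagen, had the largest difference of all 24 genes. Its FPKM were 1.11, 0.887 and 1.38 in diabetic rats and 4.46, 3.70 and 3.39 in controls. The highest diabetic rat was thus well below the lowest non-diabetic rat. The mean was 1.13 ± 0.245 against 3.85 ± 0.551 FPKM, which is 70.8% lower in diabetic rats. The log2 fold change was -1.70 (standard error 0.20), with a 95% interval from -2.17 to -1.23 (adjusted p = 0.0648 with limma). The adjusted p from limma was 0.0104 when only genes with a protein-coding symbol were tested, the one setting tried that placed it below 0.05. It was 0.0552 to 0.123 under other filters, pseudocounts, scalings and eBayes settings, and 0.111 to 0.256 when a rat was left out. Whichever rat was left out, the log2 fold change stayed between -1.85 and -1.56.

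Col1a1 (ENSRNOG00000003897), which encodes the major chain of type I collagen, was at 0.881, 0.897 and 0.931 FPKM in diabetic rats and at 2.29, 2.83 and 1.29 FPKM in controls. The diabetic rats lay close together and the controls were widely spread, with replicate 3 nearest to the diabetic group. The mean was 57.8% lower in diabetic rats, with a log2 fold change of -1.09 and a 95% interval from -1.77 to -0.41 (adjusted p = 0.456 with limma). Without non-diabetic replicate 2 the log2 fold change of Col1a1 was -0.86, short of the criterion, and then Col3a1 alone of the collagens met it.

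Col5a2 (ENSRNOG00000003736), a chain of the type V collagen that is built into type I fibrils and sets their diameter, was at 1.14, 0.810 and 1.15 FPKM in diabetic rats and at 1.28, 1.70 and 1.45 FPKM in controls. The groups did not overlap, but the gap between them was small. The log2 fold change was -0.48 with a 95% interval from -1.0 to 0.04 (adjusted p = 0.705 with limma). Its neighbour in the genome, Col3a1, differed more, and the ratio of Col3a1 to Col5a2 was 0.979, 1.09 and 1.19 in diabetic rats and 3.49, 2.18 and 2.35 in controls (exact permutation test, two-sided, p = 0.1). The ratio of Col3a1 to Col1a1 overlapped between the groups, at 0.989 to 1.48 in diabetic rats and 1.31 to 2.63 in controls.

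The other 7 fibrillar genes had a mean below 0.5 FPKM. Col5a1, the partner chain of Col5a2, was at 0.329, 0.385 and 0.459 FPKM in diabetic rats and at 0.507, 0.764 and 0.467 FPKM in controls, so the groups did not overlap but nearly touched. Col11a2, a chain of the cartilage collagen XI, reached 0.554 FPKM in diabetic replicate 2 and lay between 0.317 and 0.389 FPKM in the other 5 rats. Col2a1, the main collagen of cartilage, was at or below 0.0636 FPKM in every rat. The 10 fibrillar rows together summed to 4.52, 4.20 and 4.83 FPKM in diabetic rats and to 9.71, 10.0 and 7.73 FPKM in controls, a mean that was 50.7% lower in diabetic rats. These sums are a description, and Col3a1 and Col1a1 make up most of them in controls.

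Of the 6 type IV genes of basement membranes, all were tested, 4 were lower with a p-value below 0.05, and for 5 the groups did not overlap. Of all genes tested, 4.99% were lower at this level, and for 8.42% every diabetic rat was below every non-diabetic rat. None of the type IV genes met the criterion of a log2 fold change of at least 1 in size. Their median log2 fold change was -0.51, between -0.70 and -0.14. Col4a1 and Col4a2, the chains that are found in basement membranes of nearly all tissues and that assemble in a fixed proportion, are those whose promoter windows share 176 bases.

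Col4a1 (ENSRNOG00000016281) was at 3.76, 2.64 and 3.19 FPKM in diabetic rats and at 5.60, 4.83 and 4.42 FPKM in controls. Its log2 fold change was -0.62 (standard error 0.16, adjusted p = 0.438 with limma). Col4a2 (ENSRNOG00000023972) was at 0.806, 1.13 and 1.04 FPKM in diabetic rats and at 1.87, 1.53 and 1.35 FPKM in controls. Its log2 fold change, also -0.62, had a larger standard error of 0.22 (adjusted p = 0.603 with limma), and its unadjusted p-value was above 0.05 without diabetic replicate 1 or without non-diabetic replicate 1 or 2. Both genes were lower in every diabetic rat than in any non-diabetic rat, by 35.4% and 37.3% in the means. The ratio of Col4a1 to Col4a2 was 4.66, 2.34 and 3.05 in diabetic rats and 2.997, 3.16 and 3.27 in controls. The non-diabetic ratios thus lay within the range of the diabetic ones (exact permutation test, two-sided, p = 0.9), and the diabetic rats were more widely spread. Without diabetic replicate 1 the difference of this ratio changed its sign.

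Col4a3 and Col4a4 code for chains that, with that of Col4a5, form the network known from the glomerular basement membrane. Col4a4 (ENSRNOG00000014851) was at 3.30, 3.61 and 4.45 FPKM in diabetic rats and at 5.38, 4.54 and 5.001 FPKM in controls. The highest diabetic rat was only just below the lowest non-diabetic rat (log2 fold change -0.39, adjusted p = 0.614 with limma). The unadjusted p-value of Col4a4 was above 0.05 without diabetic replicate 1 or 2, or non-diabetic replicate 1 or 3. Col4a3 (ENSRNOG00000015365) was at 1.01, 2.70 and 2.90 FPKM in diabetic rats and at 2.94, 3.31 and 3.74 FPKM in controls. The log2 fold change of -0.70 for Col4a3 rested largely on diabetic replicate 1, without which it was -0.24, and its 95% interval ran from -1.57 to 0.18 (adjusted p = 0.758 with limma). In that rat the ratio of Col4a3 to Col4a4 was 0.306, against 0.545 to 0.749 in the other 5 rats.

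Col4a5 (ENSRNOG00000018951), which lies on the X chromosome, was at 3.34, 2.91 and 3.61 FPKM in diabetic rats and at 4.41, 4.23 and 3.86 FPKM in controls. It was 21.1% lower in the mean of the diabetic rats (log2 fold change -0.34, adjusted p = 0.634 with limma), and its unadjusted p-value was above 0.05 without replicate 1 or 2 of either group. Col4a6, head to head with it, overlapped between the groups, at 0.516 to 0.775 FPKM in diabetic rats and 0.618 to 0.727 FPKM in controls, and the 95% interval of its log2 fold change ran from -0.81 to 0.52. The 6 type IV rows summed to 12.7, 13.8 and 15.7 FPKM in diabetic rats and to 20.9, 19.1 and 19.0 FPKM in controls. They held 12.7% to 15.2% of all summed collagen FPKM in diabetic rats and 16.3% to 17.4% in controls, and these ranges did not overlap.

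**Figure D2:**
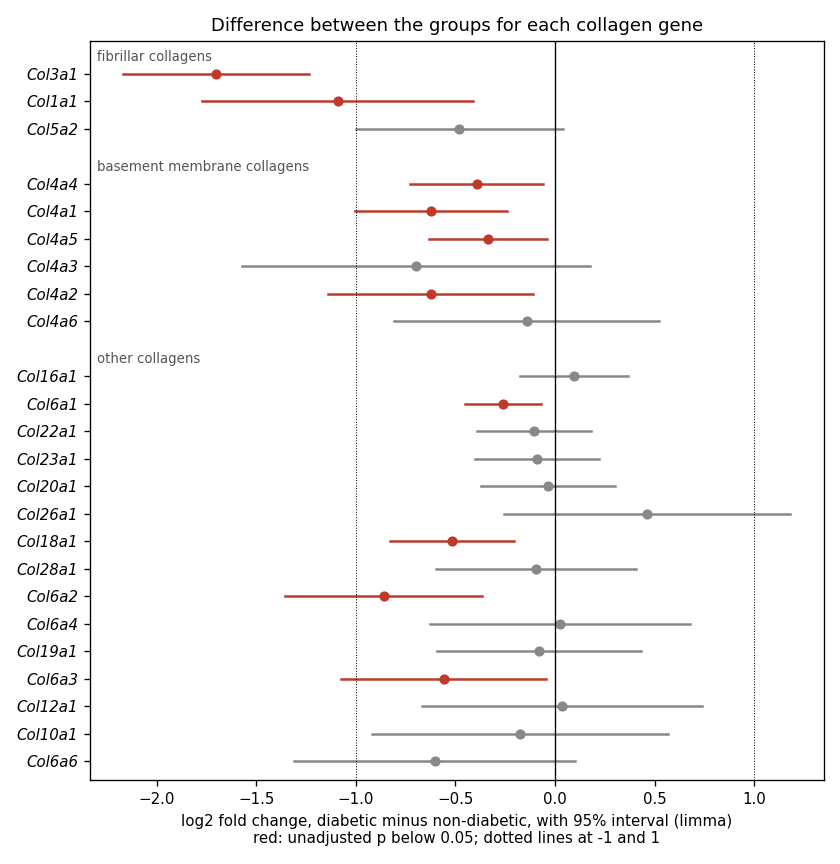
Log2 fold change (diabetic minus non-diabetic) of the 24 collagen genes tested, with the 95% interval from limma, red for an unadjusted p-value below 0.05 and dotted lines at -1 and 1. The intervals of 10 genes lie below 0, among them those of Col3a1 at -1.70 and Col6a2 at -0.86, and no interval lies above 0.

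Among the other collagens, 4 of the 15 genes tested were lower with a p-value below 0.05 and 0 were higher, against 4.99% and 2.47% of all genes. The median log2 fold change of the other collagens was -0.097. Of these 4 genes, 3 code for the chains of type VI, the collagen of beaded filaments, whose common form is built from the products of Col6a1, Col6a2 and Col6a3.

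Col6a1 (ENSRNOG00000001249) was at 14.7, 14.5 and 15.0 FPKM in diabetic rats and at 18.7, 18.5 and 16.0 FPKM in controls. The difference was 17.0% in the means, without overlap of the groups (log2 fold change -0.26, standard error 0.08, adjusted p = 0.539 with limma), and the unadjusted p-value was above 0.05 without non-diabetic replicate 1. Col6a2 (ENSRNOG00000001254), its neighbour, was at 1.03, 0.845 and 0.792 FPKM in diabetic rats and at 1.76, 1.93 and 1.41 FPKM in controls. That was 47.7% lower in the mean of the diabetic rats (log2 fold change -0.86, standard error 0.21, adjusted p = 0.423 with limma), the largest difference of the type VI chains. Col6a3 (ENSRNOG00000019648) was at 0.755, 0.787 and 0.843 FPKM in diabetic rats and at 1.29, 1.39 and 1.01 FPKM in controls. The diabetic rats lay close together below the controls, with a log2 fold change of -0.56 (adjusted p = 0.649 with limma), and its unadjusted p-value was above 0.05 without any of the rats except non-diabetic replicate 3, and with a limit of 1 FPKM on the mean.

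The chains of type VI were unequal in level in every rat. The ratio of Col6a1 to Col6a2 was 14.2, 17.1 and 18.9 in diabetic rats and 10.6, 9.59 and 11.4 in controls. The ratios of the diabetic rats were all higher (exact permutation test, two-sided, p = 0.1, the smallest it can give). The ratio of Col6a1 to Col6a3 was likewise 17.8 to 19.5 in diabetic rats and 13.3 to 15.9 in controls, without overlap.

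The remaining type VI chains, Col6a4, Col6a5 and Col6a6, lie next to each other in the genome. Over the 6 rats the mean of Col6a4 lay between those of Col6a3 and Col6a2, and Col6a5 and Col6a6 were lower. Col6a6 was at 0.400, 0.560 and 0.450 FPKM in diabetic rats and at 0.957, 0.610 and 0.749 FPKM in controls. The groups did not overlap, and the 95% interval of the log2 fold change ran from -1.31 to 0.10 (adjusted p = 0.736 with limma). Col6a4 had a mean of 1.19 FPKM in each group, with a log2 fold change of 0.024 and an interval from -0.63 to 0.68. Col6a5, below 0.5 FPKM in the 6 rats, overlapped between the groups.

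Col18a1 (ENSRNOG00000001229), a collagen of basement membrane zones from whose end the fragment endostatin is cut, was the fourth of these genes. It was at 2.19, 2.21 and 2.19 FPKM in diabetic rats and at 2.96, 3.03 and 3.62 FPKM in controls. The diabetic values were nearly equal, and each was below every non-diabetic value. The mean was 31.4% lower (log2 fold change -0.52, standard error 0.13, adjusted p = 0.436 with limma), and its unadjusted p-value stayed below 0.05 in all 6 fits that left out a rat. Col15a1, the related multiplexin, was listed at 0.563 FPKM in non-diabetic replicate 2, at 0.0108 FPKM in diabetic replicate 1 and at 0 in the other 4 rats.

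The collagens with the highest levels, apart from Col6a1, overlapped between the groups. Col16a1 (ENSRNOG00000031475), a fibril-associated collagen, was at 26.2, 33.1 and 28.6 FPKM in diabetic rats and at 24.8, 26.7 and 30.9 FPKM in controls. Col22a1, a fibril-associated collagen known from tissue junctions, was at 14.9, 13.2 and 13.3 FPKM in diabetic rats and at 17.6, 12.9 and 14.5 FPKM in controls. The 95% intervals of their log2 fold changes ran from -0.18 to 0.36 and from -0.39 to 0.18, so that differences of the size seen for Col3a1 lie outside both intervals. Col20a1, another fibril-associated collagen, had means of 4.86 ± 0.672 and 4.97 ± 0.591 FPKM in diabetic rats and non-diabetic rats, and its interval ran from -0.37 to 0.30. For Col23a1, a transmembrane collagen, the means were 5.07 ± 0.197 and 5.45 ± 0.832 FPKM and the interval ran from -0.40 to 0.22. Of the 5 fibril-associated genes tested, 0 had groups that did not overlap. Of all genes tested 13.0% had such groups, so a count of 0 among 5 does not set these genes apart.

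Col26a1 had the highest log2 fold change of the 24 genes. Its FPKM were 6.56, 3.98 and 3.07 in diabetic rats and 4.27, 2.72 and 2.57 in controls. The groups overlapped and diabetic replicate 1 was far above the others, and the log2 fold change of 0.46 had a 95% interval from -0.25 to 1.18 (adjusted p = 0.82 with limma). Col28a1, with means of 1.71 ± 0.298 and 1.84 ± 0.359 FPKM, Col19a1, with 1.14 ± 0.177 and 1.21 ± 0.191 FPKM, and Col12a1, with 0.999 ± 0.310 and 0.967 ± 0.241 FPKM in diabetic rats and non-diabetic rats, all overlapped. So did Col10a1, the collagen of hypertrophic cartilage, at 0.707 ± 0.239 and 0.799 ± 0.173 FPKM. For these 4 genes the intervals reached as low as -0.92 and as high as 0.74, so differences of up to that size lie within the error.

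In all, 19 collagen genes had a mean between 0.0372 and 0.485 FPKM, and the second row of Col23a1 was at 0. The mean of the diabetic rats was lower for 15 of these genes and higher for 4, and the groups did not overlap for 2, Col5a1 and Col14a1. Of all genes tested, whose means are at least 0.5 FPKM, 8.42% were lower and 4.56% higher without overlap. The count of 2 among 19 is thus near the share of all genes. The log2 fold change was below 0 for 55.6% of all genes tested. That share was not computed for genes at these low levels, so the counts of 15 and 4 are a description. Col14a1, a fibril-associated collagen, was at 0.161, 0.0611 and 0.0907 FPKM in diabetic rats and at 0.178, 0.279 and 0.180 FPKM in controls. When no filter was used, 0 of the 19 had a p-value below 0.05 with limma. What size of difference could be detected at these levels was not tested.

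Over all 44 rows, collagen FPKM summed to 100.1, 104.7 and 103.0 in diabetic rats and to 120.1, 116.3 and 116.3 in controls. The mean of the sum was 12.7% lower in diabetic rats, a difference of 14.97 FPKM. The type IV rows held 5.60 FPKM of it, the fibrillar rows 4.64 FPKM and the 6 type VI rows 4.60 FPKM, whereas the 9 fibril-associated rows summed to 50.8 ± 3.27 FPKM in diabetic rats and 50.3 ± 3.40 FPKM in controls. Col16a1 and Col22a1 together held 40.8% to 44.3% of the summed collagen FPKM in diabetic rats and 34.0% to 39.0% in controls.

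**Figure D3:**
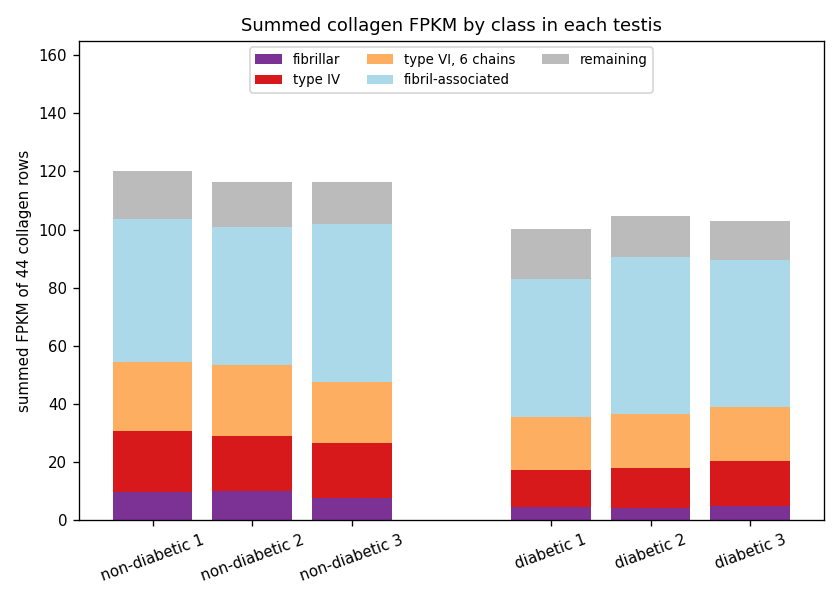
Summed FPKM of the 44 collagen rows in each of the 6 testes, stacked by class, with a bar for each rat. The fibrillar part is 4.20 to 4.83 FPKM in diabetic rats and 7.73 to 10.0 FPKM in controls, and the fibril-associated part has about the same height in both groups.

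The other genes of the collagen pathway were taken from 6 lists with 78 genes, of which 55 were tested. A p-value below 0.05 was reached by 11 of the 55 genes, 10 of them lower and 1 higher, and by 0 genes after adjustment with limma over all genes. Of all genes tested, 4.99% were lower and 2.47% higher at this level, and these shares also stand beside the count of each list below. Without non-diabetic replicate 2, 6 genes were lower and 1 was higher.

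Chains are modified and folded in the endoplasmic reticulum before they are secreted. Of the 17 genes tested in this list, 2 were lower with a p-value below 0.05 and the median log2 fold change was -0.14. Serpinh1 encodes HSP47, a chaperone that binds to the collagen triple helix. It was at 2.42, 1.85 and 2.38 FPKM in diabetic rats and at 4.01, 3.63 and 3.30 FPKM in controls, without overlap (log2 fold change -0.70, standard error 0.15, adjusted p = 0.353 with limma). P3h4, whose product takes part in the hydroxylation of collagen lysines, was at 1.04 ± 0.132 and 1.58 ± 0.310 FPKM (log2 fold change -0.55, adjusted p = 0.649 with limma). The genes with the highest levels in the list were Mia3, which serves the export of large cargo such as collagen, and Ppib, a prolyl isomerase. Their log2 fold changes were 0.038 and -0.18, and the groups overlapped for both.

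After secretion the ends of procollagen are cut off and the chains are cross-linked. Of the 9 genes tested, 2 were lower with a p-value below 0.05, and the median log2 fold change was -0.41. The log2 fold change was below 0 for 9 of the 9, and for 55.6% of all genes tested. Pcolce, an enhancer of the protease that removes the C-terminal propeptide, was at 10.5, 8.34 and 9.01 FPKM in diabetic rats and at 12.8, 16.4 and 11.0 FPKM in controls (log2 fold change -0.51, adjusted p = 0.539 with limma). Loxl1, of the lysyl oxidase family of cross-linking enzymes, was at 1.32 ± 0.0597 and 1.80 ± 0.232 FPKM (log2 fold change -0.41, adjusted p = 0.666 with limma). Neither pair of groups overlapped, whereas Tgm2, a transglutaminase and after Pcolce the gene with the highest level in this list, overlapped at 6.33 ± 0.955 and 7.25 ± 0.844 FPKM.

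Of the 8 genes tested for proteins that bind to fibrils, 4 were lower with a p-value below 0.05, and the median log2 fold change was -0.45. Small leucine-rich proteoglycans and related proteins make up 7 of the 8, among them these 4. Ogn (osteoglycin) was at 3.50, 4.24 and 3.97 FPKM in diabetic rats and at 6.45, 6.55 and 6.34 FPKM in controls. The values were close together within each group and far apart between them (log2 fold change -0.71, standard error 0.11, adjusted p = 0.152 with limma). Bgn (biglycan) was at 5.60, 4.57 and 7.17 against 10.4, 10.8 and 9.74 FPKM (log2 fold change -0.85, adjusted p = 0.276 with limma). Dcn (decorin) was at 4.33, 4.37 and 4.12 against 5.95, 10.4 and 5.95 FPKM (log2 fold change -0.73, adjusted p = 0.514 with limma). Podn (podocan) had a smaller log2 fold change of -0.32 (adjusted p = 0.661 with limma). The other 3 of the family did not pass the test. Fmod (fibromodulin) was at 6.45 ± 0.822 and 6.41 ± 1.01 FPKM, and the 95% interval of its log2 fold change ran from -0.33 to 0.36. Lum (lumican) overlapped between the groups, at 0.385 ± 0.182 and 0.627 ± 0.301 FPKM. Prelp was at 3.53, 3.35 and 3.39 against 3.20, 3.26 and 3.33 FPKM, so every diabetic rat was slightly above every control (log2 fold change 0.068, 95% interval -0.18 to 0.32). Sparc, a collagen-binding matrix protein with the highest level of the list, overlapped at 25.8 ± 2.75 and 30.8 ± 3.78 FPKM (log2 fold change -0.26, adjusted p = 0.688 with limma).

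Among the 6 collagen receptors tested, Ddr2, a receptor tyrosine kinase that binds fibrillar collagen, was the 1 gene with a p-value below 0.05. It was at 0.666, 0.867 and 0.824 FPKM in diabetic rats and at 1.38, 1.34 and 1.18 FPKM in controls (log2 fold change -0.67, adjusted p = 0.552 with limma). Its relative Ddr1 overlapped between the groups, with a log2 fold change of 0.10, as did Itgb1, the common beta chain of the collagen-binding integrins, at -0.19.

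Of the 4 proteases tested, Fap, a serine protease of activated fibroblasts that cleaves denatured collagen, was lower, at 0.504, 0.259 and 0.971 FPKM in diabetic rats and 1.23, 1.46 and 1.34 FPKM in controls (log2 fold change -1.23, adjusted p = 0.57 with limma). This met the criterion, though the diabetic rats varied widely. Ctsk, the collagen-cleaving cathepsin K, and Mmp14, a membrane-bound matrix metalloprotease, had the highest levels of the list, with log2 fold changes of 0.071 and -0.13 and groups that overlapped.

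In the list of TGF-beta signalling, which is known to act on collagen genes, 1 of the 11 genes tested had a p-value below 0.05, and it was higher. Ctgf, a matricellular protein induced by TGF-beta, was at 2.54, 2.98 and 3.43 FPKM in diabetic rats and at 1.99, 1.97 and 1.29 FPKM in controls (log2 fold change 0.75, standard error 0.21, adjusted p = 0.487 with limma). Every diabetic rat was above every non-diabetic rat, the opposite direction to the 10 collagen genes. The genes with the highest levels of this list, Smad4 and Tgfbr3, overlapped, with log2 fold changes of -0.097 and -0.084.

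**Figure D4:**
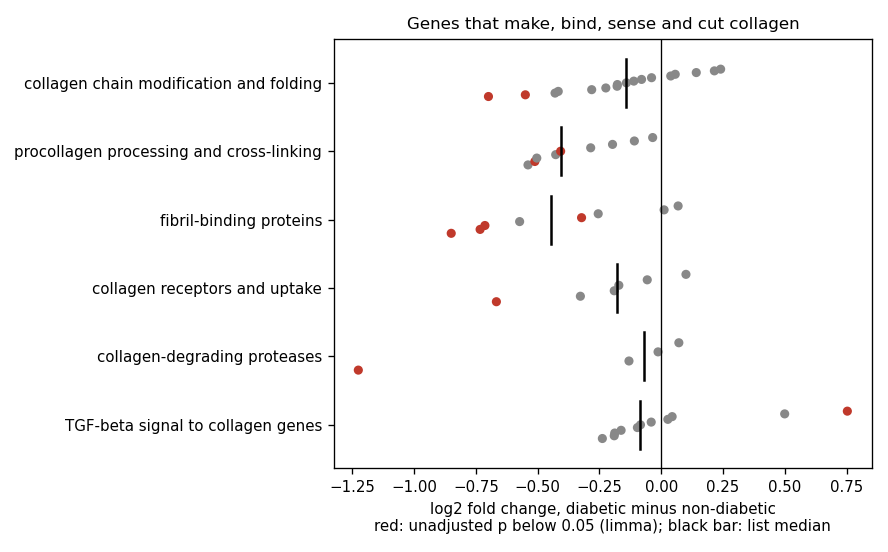
Log2 fold change (diabetic minus non-diabetic) of the 55 genes tested in 6 lists of the collagen pathway, with a point for each gene, red for an unadjusted p-value below 0.05 with limma, and a black bar at the median of each list. The medians lie between -0.45 for fibril-binding proteins and -0.072 for collagen-degrading proteases, and Ctgf at 0.75 is the red point above 0.

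Markers of cell types that are present in the testis moved with the groups in part, and their part in the collagen differences was not tested. Beside the counts below, 4.99% of all genes tested were lower and 2.47% higher with a p-value below 0.05. The log2 fold change was below 0 for 55.6% of all genes tested. Of the 7 Leydig cell markers tested, 7 were lower with a p-value below 0.05, and their FPKM summed to between 30.5 and 65.3 in diabetic rats and between 91.9 and 127.8 in controls. They are Cyp17a1, Cyp11a1, Star, Insl3, Lhcgr, Hsd17b3 and Hsd11b1, with log2 fold changes between -1.62 and -0.79, and Cyp17a1 had an adjusted p = 0.0415 with limma. For 5 of the 7 every diabetic rat was below every control, against 8.42% of all genes tested. For Hsd17b3 and Hsd11b1 the groups overlapped. Of the 7 fibroblast markers, 2 were lower with a p-value below 0.05, Dpt (log2 fold change -1.76) and Pdgfra (-0.52), and the sums were 16.5 to 23.0 against 24.6 to 38.0 FPKM. These 2 genes hold most of the difference in the sums. For the other fibroblast markers the groups overlapped. Mfap5 was slightly higher in diabetic rats, at 7.03 ± 0.648 FPKM against 6.80 ± 1.66 FPKM in controls. One of the fibroblast markers, Lum, is also in the list of fibril-binding proteins. Of the 8 macrophage markers, 3 were lower, Cd68, Csf1r and C1qa, with sums of 28.6 to 35.0 against 36.1 to 39.6 FPKM. All 8 macrophage markers had a log2 fold change below 0, but apart from these 3 the groups overlapped. Mrc1, which makes up most of each sum, was at 20.8 ± 2.54 FPKM in diabetic rats and 21.6 ± 0.404 FPKM in controls (log2 fold change -0.064). For these 3 lists the sums of the groups did not overlap, each being lower in diabetic rats.

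Of the 8 markers of peritubular myoid cells, which surround the tubules, 0 had a p-value below 0.05 with limma in either direction. Their median log2 fold change was -0.12, and the sums overlapped at 80.8 to 89.5 and 83.5 to 102.2 FPKM. The log2 fold change was below 0 for 7 of the 8, against 55.6% of all genes tested. For 1 of them every diabetic rat was below every control, against 8.42% of all genes tested. Endothelial markers overlapped in their sums, at 9.37 to 10.7 and 8.76 to 11.4 FPKM, and 1 of the 6 tested, Flt1, was higher (log2 fold change 0.83). Of the 9 Sertoli cell markers, 0 passed in either direction, and the sums were 399.1 to 420.9 and 347.7 to 427.0 FPKM. For the mesothelium that covers the tunica, 3 of 6 markers were tested and 1, Lrrn4, was lower (log2 fold change -1.69), with sums of 5.546 to 6.567 and 6.574 to 10.89 FPKM, which did not overlap but nearly touched. Among germ cells, 0 of the 7 spermatocyte and 0 of the 8 spermatid markers had a p-value below 0.05, and of the 6 spermatogonial markers tested Kit was lower (-0.30) and Uchl1 higher (0.34). The sums of the spermatogonial markers did not overlap either, and were higher in diabetic rats, at 57.7 to 68.8 FPKM against 53.7 to 57.4 FPKM in controls. Uchl1 makes up most of each sum, at 47.5 ± 4.91 FPKM in diabetic rats and 37.3 ± 3.07 FPKM in controls. The median log2 fold change of the spermatogonial markers was -0.17, and 4 of the 6 tested were below 0.

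**Figure D5:**
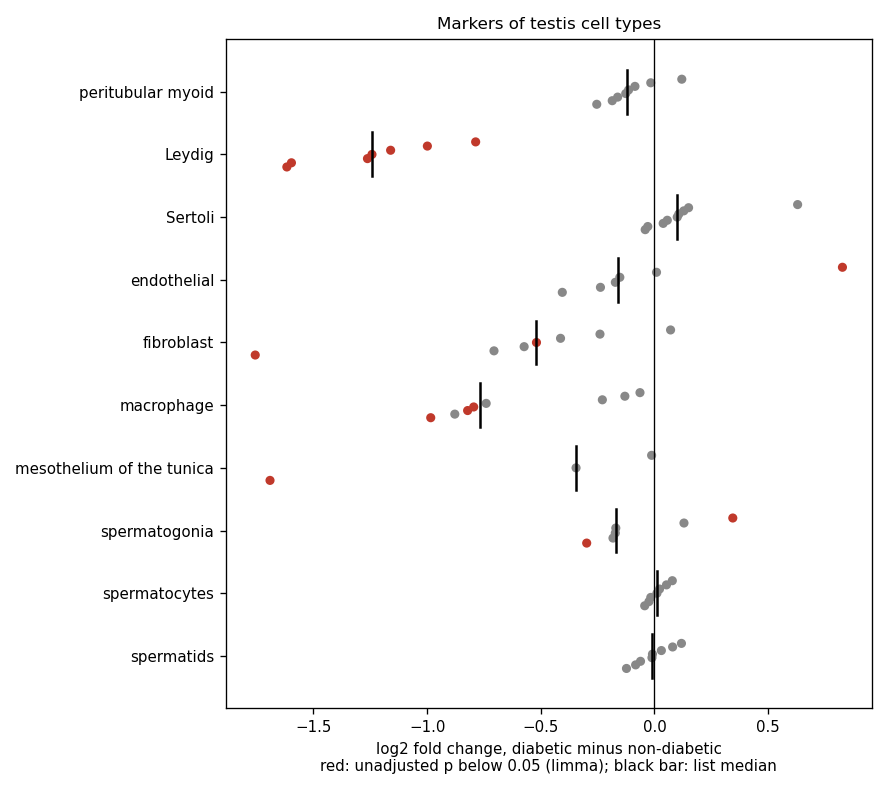
Log2 fold change (diabetic minus non-diabetic) of the marker genes tested for 10 cell types of the testis, with a point for each gene, red for an unadjusted p-value below 0.05 with limma, and a black bar at the median of each list. The Leydig markers have a median of -1.24 and the peritubular myoid markers one of -0.12, while spermatocyte and spermatid markers lie close to 0.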

How the data were processed

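RNA-Seq values of testicular tissue from 3 diabetic and 3 non-diabetic rats were used, grouped by the sample titles. The authors removed rRNA reads with BWA, used STAR for alignment to the rat genome and StringTie for transcript assembly, and deposited FPKM per gene. Genome build, versions and strand setting are not given in the sources used here. Because no counts were used, limma 3.58.1 in R 4.3.3 (lmFit, eBayes with trend, two-sided) was run on log2(FPKM + 0.1), with Benjamini-Hochberg adjustment over the 20338 genes that averaged 0.5 FPKM or more. The steps were tested on simulated data, in which the spreads were dealt to genes at random. The link between level and spread that the eBayes trend uses was thus not checked. Exact permutation tests used scipy 1.17.1 in Python 3.11.15. The depth in reads is unknown, and 3 rats a group limit the precision. Whether rats were housed or processed in batches is not given.

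The collagen genes and the lists were chosen with earlier results of these data known. Every collagen gene with a mean of at least 0.5 FPKM is named, as are lower ones that reach 0.5 FPKM in a rat. From each pathway list, genes with a p-value below 0.05 and the 2 with the highest mean are named, and from marker lists the former. Col2a1, Col6a5, Col14a1, Fmod, Lum, Prelp, Mfap5, Mrc1 and P4ha3 were named after their values were seen. Promoters came from RefSeq (GRCr8). Alternatives were other pseudocounts, filters, scalings, eBayes settings, gene sets, a replicate block and leaving out each rat.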

Additional observations from a re-analysis of the deposited data

How the results depend on the processing

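Over the alternatives, none of the collagen genes with a p-value below 0.05 changed direction. The count of collagen genes past the criterion was 1 with a pseudocount of 1 (Col3a1) and otherwise 2, and it ranged from 1 to 2 over the fits that left out a rat. The count with a p-value below 0.05 ranged from 5 to 10 over those fits and was 9 to 12 under the other alternatives. The number of genes tested changed with the filter, so this count was 9 of 20 with a limit of 1 FPKM on the mean. Without a filter it was 10 of 43. Over the fits that left out a rat, the count of genes with groups that do not overlap ranged from 13 to 14. Among the 14 without non-diabetic replicate 1, 1 gene was higher in diabetic rats. Leaving out a rat cannot lower this count, because groups that lie apart stay apart, so that range does not check it. Under the other alternatives the count ranged from 12 to 15. It was 12 of 20 genes with a limit of 1 FPKM on the mean and 15 of 43 without a filter, against 13 of 24 in the main fit. The count of pathway genes with a p-value below 0.05 ranged from 7 to 15 over the fits that left out a rat and from 8 to 13 under the others. The median log2 fold change of the fibrillar collagens was -0.29 without a filter, where 10 in place of 3 genes enter it, and -0.69 with a pseudocount of 1. Over the fits that left out a rat this median ranged from -1.40 to -0.86, that of type IV from -0.57 to -0.33 and that of other collagens from -0.19 to -0.077. The difference in the type IV share ranged from -3.79 to -2.53 percentage points, that of the ratio of Col6a1 to Col6a2 from 5.18 to 7.53 and that of Col4a1 to Col4a2 from -0.44 to 0.72.

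The sign of the log2 fold change changed in some fits that left out a rat for 6 genes whose groups overlapped, Col12a1 (-0.19 to 0.17), Col19a1 (-0.19 to 0.017), Col20a1 (-0.11 to 0.081), Col22a1 (-0.21 to 0.012), Col28a1 (-0.25 to 0.031) and Col6a4 (-0.21 to 0.19). Where a value moved, the cause was not tested unless given.

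With the replicate number as a block, 8 collagen genes were lower and 1 was higher with a p-value below 0.05. Col4a3 (lower) and Col26a1 (higher) then passed, and Col4a2, Col4a5 and Col6a3 did not, while the adjusted p of Col3a1 was 0.304 with limma. Deviations of same-numbered rats correlated at 0.106, 0.0153 and 0.0979, so the numbers were not taken to pair the rats. Single genes did vary with the number. Col26a1 fell from replicate 1 to replicate 3 in both groups. P4ha3, of the chain modification list, was at 4.89 FPKM in diabetic and 4.30 FPKM in non-diabetic replicate 1. In the other rats P4ha3 was at 0.187 to 0.344 FPKM. Whether same-numbered libraries shared a batch was not tested. The ratio of the type I chains was not run, because the second chain was not analysed here.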
